A study of Mus musculus with 2 samples.

Results

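The chemokine genes Cxcl1, Cxcl2, Cxcl3 and Cxcl5, the granulocyte growth factor gene Csf3 and the chemokine receptor gene Cxcr2 were followed in spatial transcriptomes of irradiated mouse intestine. The 6 genes were taken by symbol from the deposited gene tables, which hold 54658 symbols, and each has 1 row there. They were chosen for their role in the recruitment of neutrophils.

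The study compared intestine of DPF2 KO mice with intestine of WT mice, each after 10 Gy of X-rays, with 1 section of each genotype. Dpf2 encodes a subunit of the BAF chromatin remodelling complex. Both sections were irradiated, so no unirradiated tissue stands beside them. The sources used here do not give age, sex, the interval between irradiation and sampling, the gut segment, or where and how Dpf2 was deleted. In the figures the sections are called KO and WT after their labels.

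Cxcl1, Cxcl2, Cxcl3 and Cxcl5 are secreted chemokines of the CXC class. They bind Cxcr2, a receptor on the surface of neutrophils, and draw these cells out of the blood into inflamed tissue. Csf3 encodes granulocyte colony-stimulating factor (G-CSF), which acts through the receptor Csf3r to raise the production of neutrophils in bone marrow and their release. Epithelial cells, fibroblasts, endothelial cells, macrophages and neutrophils themselves can make several of these ligands when NF-kB, the transcription factor that interleukin-1 and tumour necrosis factor turn on, is active.

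The section labelled knockout held 88056 barcodes with 89754886 counts, at a median of 932 counts per barcode, and the section labelled wild type 50970 barcodes with 39824941 counts, at a median of 721. Levels are in CPM, a gene's counts scaled to 1000000 counts of the section or squares named, so they compare 1 gene between places and not 1 gene with another. Dpf2 itself had 2333 counts (26.0 CPM) in the section labelled knockout and 940 counts (23.6 CPM) in the section labelled wild type, a log2 ratio of 0.14 (95% interval 0.03 to 0.25). The targeted gene was thus not lower in the section labelled knockout, and directions below are those of the labels. The sections also differed in their makeup. Summed neutrophil markers stood at 28.4 against 643 CPM. Of these sums Mmp9 alone gave 16.7 against 14.4 CPM, while S100a8 gave 0.724 against 201 CPM and Csf3r 2.14 against 5.62 CPM. Epithelial markers stood at 10684 against 7350 CPM and stromal markers at 907 against 1456 CPM. Within the epithelium the difference was larger, with enterocyte markers at 30098 against 385 CPM and Paneth cell markers at 5752 against 83788 CPM, and macrophage markers stood at 173 against 691 CPM. The share of the differences below that goes with this makeup was not tested. Of the barcode names, which mark positions on the array, 45557 occur in both sections, which is 51.7% and 89.4% of their barcodes.

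The 4 chemokine genes lie in 1 cluster on chromosome 5 (GRCm38.p6), in an interval of 146.6 kb that runs from Cxcl5 (90759298 to 90761625) over Cxcl3 (90786101 to 90788093) and Cxcl1 (90891245 to 90893121) to Cxcl2 (90903899 to 90905938). Csf3 lies on chromosome 11 (98700183 to 98703631) and Cxcr2 on chromosome 1 (74153994 to 74161246). RefSeq promoter windows of the same build, 250 bases before to 50 bases after a gene's start, were given for 4 of the 6 genes. The longest run of bases common to the 250 bases before the start of Cxcl1, Cxcl2 and Cxcl3 was GGGAATTTCCC, of 11 bases, and the next longest that is no piece of it had 8. This run holds a form of the site that NF-kB is known to bind, and it was looked for with the ratios of these genes known. Searched on both strands, it occurred in 14 of 32851 windows (0.0426%), among them the 3 it was taken from, and not in that of Cxcr2. It began 71, 97 and 73 bases before the start of Cxcl1, Cxcl2 and Cxcl3. The 150 bases before the start are shown for these 3 genes because all were nearly without counts in the section labelled knockout. They come from chr5:90891095-90891244 for Cxcl1, chr5:90903749-90903898 for Cxcl2 and chr5:90785951-90786100 for Cxcl3, each on the plus strand, with the shared run in capitals:
Cxcl1: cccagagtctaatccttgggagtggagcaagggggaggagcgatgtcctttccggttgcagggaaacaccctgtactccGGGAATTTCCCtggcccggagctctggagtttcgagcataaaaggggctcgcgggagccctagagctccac
Cxcl2: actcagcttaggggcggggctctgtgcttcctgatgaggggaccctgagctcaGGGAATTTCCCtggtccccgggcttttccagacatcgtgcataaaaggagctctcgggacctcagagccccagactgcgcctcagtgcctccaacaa
Cxcl3: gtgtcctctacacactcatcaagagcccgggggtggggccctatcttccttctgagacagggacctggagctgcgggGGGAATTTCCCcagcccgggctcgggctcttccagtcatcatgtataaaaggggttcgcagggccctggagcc

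The stretches were lined up on the run and compared base by base, without gaps. With the run left out, 19 of the 50 bases nearest to it were identical between Cxcl1 and Cxcl2. For Cxcl1 and Cxcl3 it was 17, and for Cxcl2 and Cxcl3 it was 13. Stretches alike at a shift of a few bases are missed, so low counts do not show that the promoters are unlike. A match of letters is a description of the sequence and shows no binding. Of the other 11 genes with the run in their window, 3 had 200 or more counts over both sections. Their log2 ratios, knockout over wild type by the labels, were −1.69 for the cytokine gene Il16, −0.51 for Zfp84 and 0.44 for Gm11100.

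All 6 genes were at or near 0 in the section labelled knockout and had more counts in the section labelled wild type. Cxcl2 had 33 counts in the section labelled knockout (0.368 CPM, 95% interval 0.253 to 0.516) and 8723 counts in the section labelled wild type (219 CPM, 214 to 224). Its log2 ratio was −9.22 (−9.76 to −8.73), a level 596-fold lower. Cxcl1 had 41 counts (0.457 CPM) against 4170 counts (104.7 CPM), a log2 ratio of −7.84 (−8.32 to −7.40). These ligands had the most counts of the 6 genes in the section labelled wild type. The other section held 0.378% and 0.983% as many counts of Cxcl2 and Cxcl1, on 2.25 times the total. Cxcl3, the third chemokine with the shared run, had 1 count in the section labelled knockout and 597 counts (15.0 CPM) in the section labelled wild type, a log2 ratio of −10.39 (−15.70 to −7.91).

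Cxcl5, which lies at the far end of the cluster, kept more of its counts. It had 123 counts in the section labelled knockout (1.37 CPM, 1.14 to 1.64) and 2342 in the section labelled wild type (58.8 CPM, 56.4 to 61.2), a log2 ratio of −5.42 (−5.70 to −5.16). In the section labelled knockout Cxcl5 thus had 3.73 counts for each count of Cxcl2 (2.52 to 5.65), and in the section labelled wild type 0.268 (0.256 to 0.281). Against Cxcl1 it had 3.0 counts per count (2.09 to 4.38) and 0.562 (0.534 to 0.591). The order of Cxcl5 and Cxcl2 by counts was therefore opposite in the sections, and neither pair of intervals overlapped.

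Csf3 had 1 count in the section labelled knockout and 1287 counts (32.3 CPM, 30.6 to 34.1) in the section labelled wild type. Its log2 ratio was −11.50 (−16.81 to −9.02). The ratios of Csf3 and Cxcl3 rest on 1 count each, both in the same position part of the section labelled knockout. With counts below the floor of 3 set to 3, a choice made after seeing the data, their ratios were −9.92 for Csf3 and −8.81 for Cxcl3. On these values Csf3, Cxcl2, Cxcl3, Cxcl1 and Cxcl5 stood at ranks 2, 3, 6, 9 and 73 from the lowest of the 14516 genes with a total of at least 200 counts.

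Cxcr2, the receptor of the 4 chemokines, had the fewest counts of the 6 in the section labelled wild type. It had 12 counts in the section labelled knockout (0.134 CPM, 0.0691 to 0.234) and 186 in the section labelled wild type (4.67 CPM, 4.02 to 5.39), a log2 ratio of −5.13 (−6.10 to −4.29). Its 198 counts fall short of the minimum of 200 used for the ranks. The other 5 genes passed that minimum only through the section labelled wild type.

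All 6 genes were 32-fold or more lower in the section labelled knockout, as were 93 of the 14516 genes (0.641%), while 2862 genes (19.7%) were 2-fold or more lower, 15.7% were 2-fold or more higher and the median of all was −0.18. The genes were chosen with earlier results of these sections known, so their count is a description. With 1 section of each genotype there is no replicate and no test, and all intervals cover counting error only. Since a capture position can hold several cells, fewer cells that make a gene and less RNA per cell cannot be told apart.

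**Figure D1:**
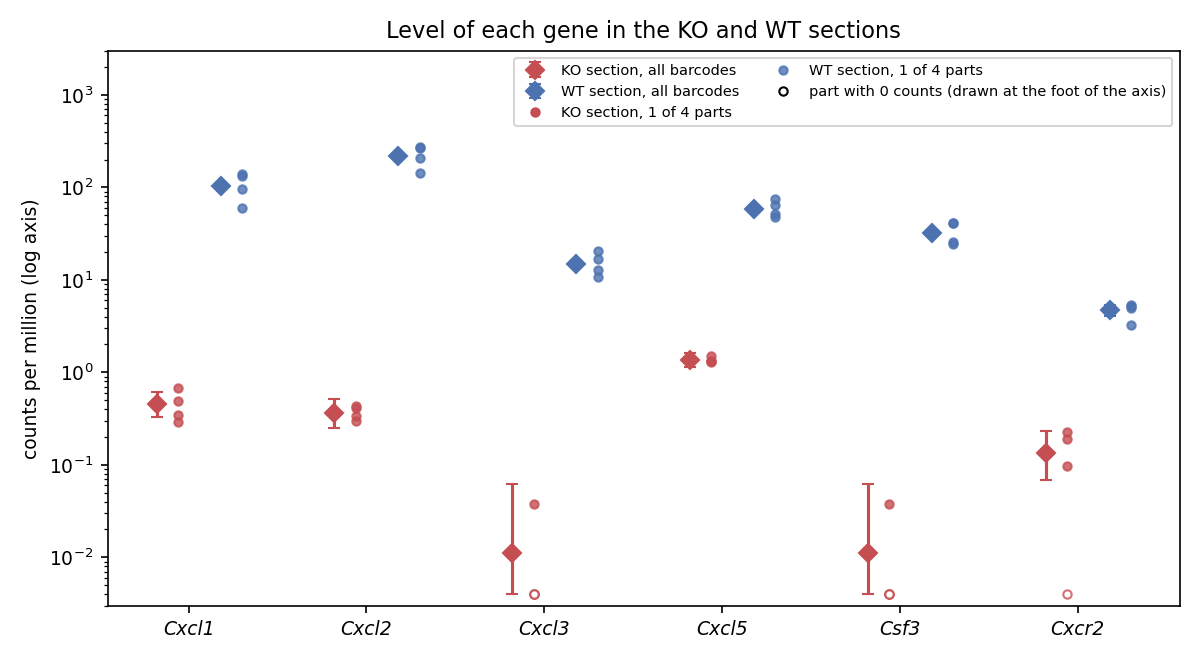
Level of each gene in CPM (log axis). Diamonds show the whole KO section (red) and the whole WT section (blue) with 95% Poisson intervals, small points the 4 position parts of each, and open points parts with 0 counts; intervals that reach below the axis stop at its foot. For every gene the KO values lie below the WT values, from 0.0111 against 32.3 CPM for Csf3 to 1.37 against 58.8 CPM for Cxcl5.

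The difference held in each position part of the sections. Over 4 parts with about equal numbers of barcodes, Cxcl2 lay between 0.295 and 0.432 CPM in the section labelled knockout and between 143 and 275 CPM in the section labelled wild type. Cxcl1 lay between 0.288 and 0.679 CPM and between 60.0 and 140.1 CPM, and Cxcl5 between 1.29 and 1.51 CPM and between 47.5 and 74.2 CPM. For none of the 6 genes did the parts overlap, which was also so for 42.8% of all genes in this direction. In the section labelled wild type the fourth part was the lowest for Cxcl1, Cxcl2, Cxcl3, Cxcl5 and Cxcr2, with Cxcl2 at 143 CPM there, and for Csf3 the second part was the lowest at 24.5 CPM.

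Finer tiles of 100 position units showed the same. Cxcl2 had a lowest, median and highest value of 0, 0 and 3.04 CPM over 92 tiles of the section labelled knockout, with 67 tiles at 0, and of 31.3, 205 and 585 CPM over 65 tiles of the section labelled wild type. Cxcl1 had 0, 0 and 2.82 CPM against 7.82, 90.2 and 259 CPM, and Csf3 had 0, 0 and 0.816 CPM, with 91 tiles at 0, against 4.49, 29.2 and 88.8 CPM. For these genes the highest tile of the section labelled knockout lay below the lowest tile of the section labelled wild type. Cxcl5 had 0, 1.01 and 9.11 CPM, with 31 tiles at 0, against 11.5, 59.4 and 117 CPM, again without overlap. Such a gap was seen for 161 of the 14516 genes (1.11%). Cxcl3 and Cxcr2 overlapped between the sections, since 3 and 8 tiles of the section labelled wild type were at 0 for them.

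**Figure D2:**
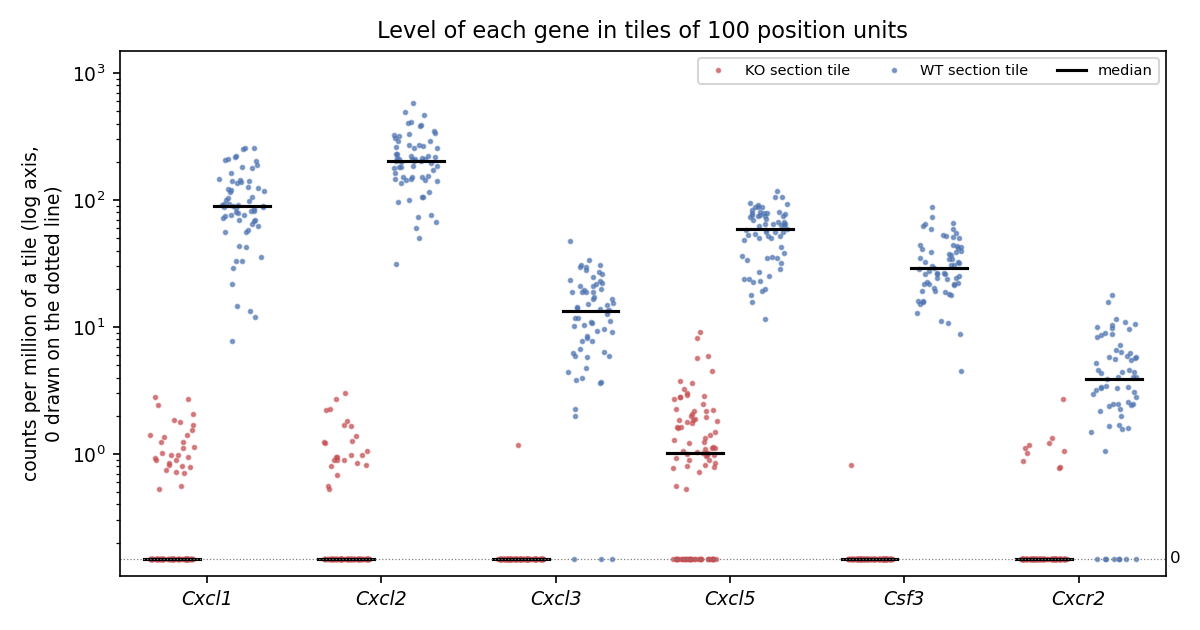
Level of each gene in tiles of 100 position units with 200 or more barcodes, in CPM of the tile (log axis, tiles at 0 on the dotted line). Red points are the 92 tiles of the KO section, blue points the 65 tiles of the WT section and black lines medians. The KO tiles lie below the WT tiles for Cxcl1, Cxcl2, Cxcl5 and Csf3, and the sets meet at 0 for Cxcl3 and Cxcr2.

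Other chemokine genes inside the same cluster differed less, or the other way. Pf4, a chemokine of platelets, had 487 counts in the section labelled knockout and 793 in the section labelled wild type, a log2 ratio of −1.88 (−2.04 to −1.71). Ppbp, also a chemokine of platelets that binds Cxcr2 once processed, had 6 and 23 counts and a ratio of −3.11 (−4.70 to −1.77). Cxcl15, a CXC chemokine described in mouse lung, had 20 and 4 counts and a ratio of 1.15 (−0.43 to 3.16), an interval that includes 0. The intervals of these 3 genes lay above those of Cxcl1, Cxcl2, Cxcl3 and Cxcl5.

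To see how the genes were spread, counts were summed in squares with a side of 10 position units, of which 8285 in the section labelled knockout and 4917 in the section labelled wild type held 1000 or more counts. Cxcl2 had a count in 32 squares of the section labelled knockout (0.386%) and in 3213 squares of the section labelled wild type (65.3%). Cxcl1 had one in 40 squares (0.483%) against 2110 (42.9%), and Cxcl5 in 114 squares (1.38%) against 1643 (33.4%). Csf3 was found in 1 square against 937 (19.1%), Cxcl3 in 1 against 479 (9.74%), and Cxcr2 in 12 (0.145%) against 175 (3.56%). Squares of the section labelled knockout were deeper, at a median of 10210 against 7535 counts. With every square thinned to 1000 counts, Cxcl2 was expected in 0.0425% of squares against 19.2%, and Cxcl5 in 0.155% against 6.17%.

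In the section labelled knockout the counts stood almost alone, with at most 3 in a square. The highest square of the section labelled wild type held 30 counts of Cxcl2, 17 of Cxcl1, 8 of Cxcl5, 7 of Csf3, 6 of Cxcl3 and 2 of Cxcr2. The variance of Cxcl2 over squares was 3.74 times its mean in the section labelled wild type, and that of Cxcl1 2.57 times. For Csf3, Cxcl3 and Cxcl5 it was 1.49, 1.42 and 1.41 times. This measure also grows with a gene's level and with uneven depth. Cxcl1 and Cxcl2 had the most counts, so it does not rank how focal the genes were. In the section labelled knockout the variance was 1.06 times the mean for Cxcl2 and 1.15 times for Cxcl5.

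**Figure D3:**
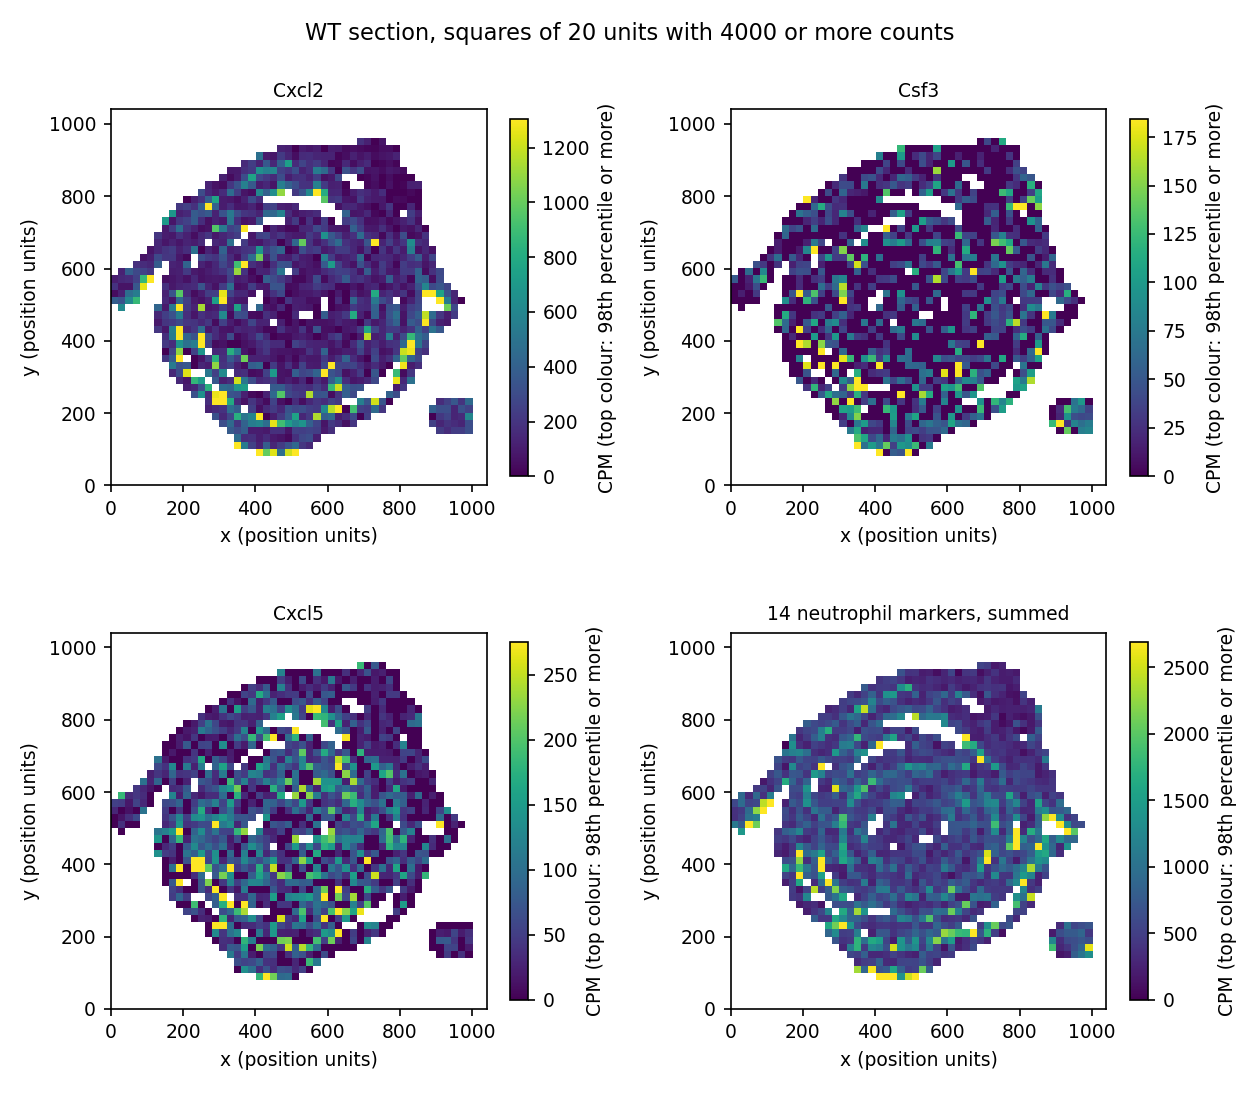
Maps of the WT section in squares of 20 position units with 4000 or more counts, for Cxcl2, Csf3, Cxcl5 and the summed neutrophil markers. Colour gives CPM of the square, each panel with its own scale whose top is the 98th percentile; axes are array positions. High squares of Cxcl2 and of the neutrophil markers lie along the same rims of the section, while Csf3 and Cxcl5, which have fewer counts, look more scattered at this square size.

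Squares of each section were then ranked by the share of their counts that came from lists of marker genes, and the highest 10% were called rich in that list. None of the 6 genes is on a marker list. In the section labelled wild type the 492 squares rich in 14 neutrophil markers held these markers at 2583 CPM, against 495 CPM in the other squares. They took in 32.05% of the counts of S100a8 and 37.4% of those of Ngp, abundant transcripts of neutrophils or their precursors, but 10.5% of those of the neutrophil surface gene Ly6g. Ly6g had 17.3% of its counts in squares rich in epithelial markers, so it did not follow S100a8 and Ngp.

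Cxcl1, Cxcl2, Cxcl3 and Cxcr2 were about 4-fold higher in the neutrophil-rich squares of the section labelled wild type. Cxcl2 had 1988 counts in them (721 CPM, 690 to 753) and 6696 counts in the other squares (181 CPM, 177 to 186), a log2 ratio of 1.99 (1.92 to 2.06). Cxcl1 stood at 326 against 87.97 CPM (log2 1.89, 1.78 to 1.997) and Cxcl3 at 50.04 against 12.3 CPM (log2 2.02, 1.73 to 2.30). They ranked 15, 19 and 11 from the highest of 11657 genes with 200 or more counts in these squares. Cxcr2, the receptor on neutrophils, stood at 15.2 against 3.79 CPM on 42 and 140 counts (log2 2.01, 1.47 to 2.51). These 4 genes were 2-fold or more higher, as were 2.19% of the genes ranked.

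Cxcl5 and Csf3 followed the neutrophil markers less. Cxcl5 stood at 96.5 CPM in the neutrophil-rich squares against 56.0 CPM elsewhere (log2 0.79, 0.60 to 0.97), and Csf3 at 51.5 against 30.9 CPM (log2 0.74, 0.48 to 0.99). Their intervals lay below those of the other 4 genes. The neutrophil-rich squares held 6.95% of all counts, 22.9% of those of Cxcl2 (22.0 to 23.8) and 11.1% of those of Csf3 (9.41 to 12.9). They were also shallower than the rest, at a median of 5008.5 against 7793 counts. With the highest 10% taken within each of 5 classes of depth, a choice made after seeing the data, the log2 ratios were 1.57 for Cxcl1, 1.60 for Cxcl2, 1.73 for Cxcl3, 1.503 for Cxcr2, 0.41 for Cxcl5 and 0.60 for Csf3.

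Csf3 had the highest ratio of the 6 genes with stromal markers, which are collagens and other genes of fibroblasts. In the 492 stromal-rich squares of the section labelled wild type it had 238 counts (66.3 CPM, 58.1 to 75.2), against 1044 counts (28.9 CPM, 27.2 to 30.7) in the other squares. The log2 ratio was 1.20 (0.99 to 1.40), and the squares held 18.6% of its counts (16.5 to 20.8) with 9.05% of all counts. The ratios of Cxcl1, Cxcl2, Cxcl3 and Cxcl5 there were 0.83, 0.74, 0.65 and 0.47, and that of Cxcr2 was 0.74. The intervals of Cxcl1, Cxcl2 and Cxcl5 lay below that of Csf3, and those of Cxcl3 and Cxcr2 overlapped it. The gap to Cxcl1 was narrow, from 0.95 to 0.99. The intervals cover counting error only, and counts varied more than that over squares. Their variance was 2.57 times the mean for Cxcl1 and 1.49 times for Csf3. Csf3 was thus the 1 gene of the 6 past 2-fold, as were 1.28% of the genes ranked. With squares of 20 units and with the highest 20% it did not reach 2-fold, at 0.93 and 0.94. Il6, a cytokine of the inducing list, had a higher ratio still, with 25.5% of its counts in the stromal-rich squares (log2 1.78, 1.62 to 1.94).

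None of the 6 genes was 2-fold higher in squares rich in epithelial markers, a mark that 1.66% of all genes reached. Csf3 stood at 18.8 CPM in them against 33.7 CPM in the other squares of the section labelled wild type (log2 −0.85, −1.21 to −0.50). Cxcl1 stood at 83.4 against 106.8 CPM (log2 −0.36, −0.53 to −0.19) and Cxcl2 at 183 against 223 CPM (log2 −0.29, −0.40 to −0.17). For Cxcl3, Cxcl5 and Cxcr2 the intervals included 0, with log2 ratios of −0.32, −0.11 and 0.21. The median of all genes ranked was 0.21 in these squares. The epithelial list stood at 12507 against 6800 CPM in these squares, so the other squares also held much epithelium.

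Csf3 and the chemokines were also compared in squares rich in more than 1 list. Csf3 stood at 83.2 CPM (59.7 to 112.8) in the 82 squares rich in both stromal and neutrophil markers and at 63.6 CPM (55.0 to 73.1) in the 410 rich in stromal but not neutrophil markers. In the 410 squares rich in neutrophil but not stromal markers it stood at 44.6 CPM (36.3 to 54.2), and at 28.8 CPM (26.9 to 30.8) in the 3593 squares rich in none of the 3 lists. Cxcl2 ran in another order, with 838 CPM in the squares rich in both, 265 CPM in those rich in stromal but not neutrophil markers, 695 CPM in those rich in neutrophil but not stromal markers and 175 CPM in those rich in no list. Cxcl3 had 14.2 CPM in squares rich in stromal but not neutrophil markers, against 12.3 CPM in those rich in no list, so little of its stromal ratio was left once neutrophil-rich squares were set apart. Cxcl5 varied least, with 91.3, 76.5, 97.6 and 54.7 CPM in the same 4 classes.

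**Figure D4:**
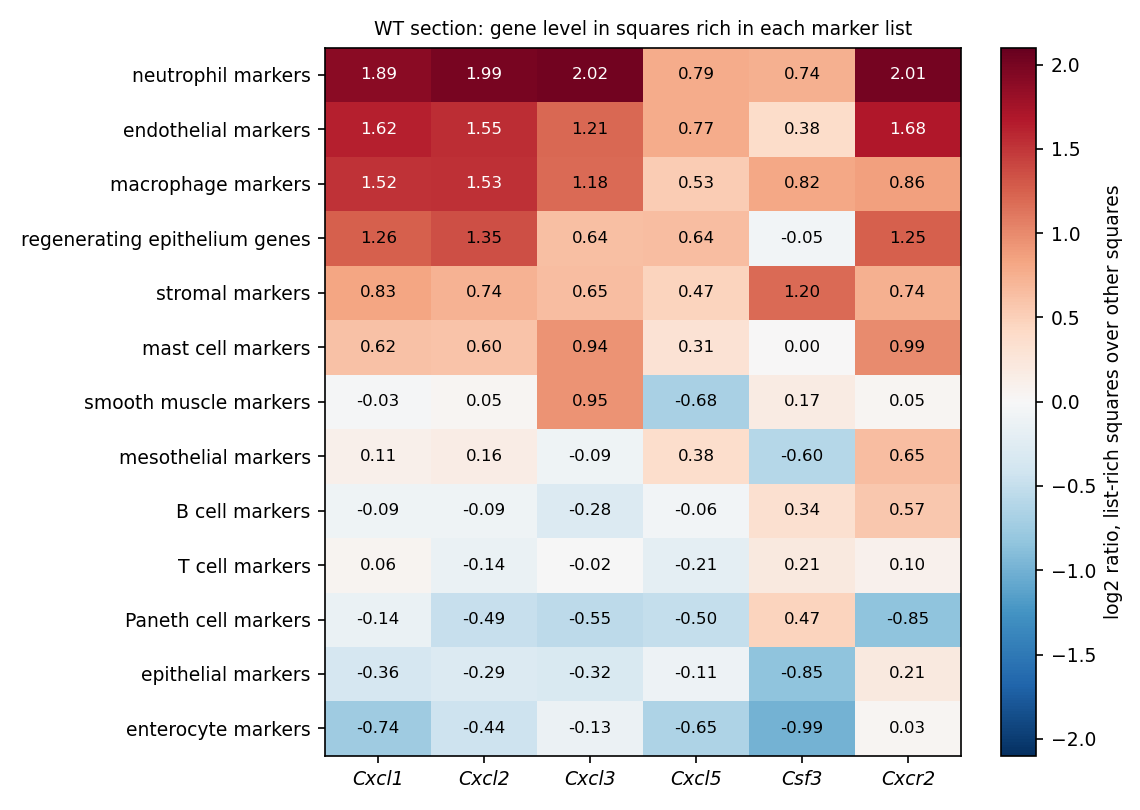
Log2 ratio of each gene's level in the squares of the WT section that are rich in a marker list over the other squares, for 13 lists (rows) and the 6 genes (columns). Red is higher and blue lower in the rich squares. The neutrophil row is highest for Cxcl1, Cxcl2, Cxcl3 and Cxcr2 (1.89 to 2.02), the stromal row is highest for Csf3 (1.20), and the epithelial and enterocyte rows hold the lowest values of Csf3 (−0.85 and −0.99).

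Neutrophil markers were not the only list that Cxcl1 and Cxcl2 went with. In macrophage-rich squares their log2 ratios were 1.52 and 1.53, in endothelial-rich squares 1.62 and 1.55, and in squares rich in genes of regenerating epithelium 1.26 and 1.35. Of all genes, 4.42%, 2.38% and 1.89% were 2-fold or more higher in those squares. Csf3 had ratios of 0.82, 0.38 and −0.05 there, and Cxcl5 of 0.53, 0.77 and 0.64. Such squares overlap and are shallow, with a median of 4371 against 7911 counts for the endothelial list and 5600.5 against 7752 for the macrophage list. Cxcl3 was the 1 gene of the 6 with a ratio near 2-fold in squares rich in smooth muscle markers (0.95, 0.62 to 1.26), while Cxcl5 was lower there (−0.68, −0.94 to −0.44), where the median of all genes was −0.21. In Paneth-rich squares Csf3 was higher (0.47, 0.26 to 0.66), while Cxcl2, at −0.49 (−0.58 to −0.39), lay near the median of all genes, which was −0.57. Paneth cell markers made up 179088 CPM of those squares, which were deep, at 12648.5 against 7149 counts.

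In the section labelled wild type, the levels of Cxcl1, Cxcl2, Cxcl3, Cxcl5, Csf3 and Cxcr2 were lower with distance from the neutrophil-rich squares. The share of all genes with such a fall was not tested, so the fall cannot be called particular to these genes. The neutrophil-rich squares are those compared above, so their values repeat that comparison, and only the steps beyond them add to it. Cxcl2 stood at 721 CPM in the 492 squares themselves, at 262 CPM in the 1503 squares next to one, at 160 CPM at a distance of 2 squares and at 129 CPM at 3 or more. Cxcl1 stood at 326, 133, 76.0 and 59.5 CPM along the same steps, and Csf3 at 51.5, 35.9, 30.3 and 26.9 CPM. The adjacent squares over the far ones gave a log2 ratio of 1.02 (0.94 to 1.11) for Cxcl2, and the same ratio was 1.16 for Cxcl1, 0.53 for Cxcl3, 0.58 for Cxcl5, 0.42 for Csf3 and 0.81 for Cxcr2. The neutrophil markers themselves stood at 2583, 611, 476 and 410 CPM and the stromal markers at 1701, 1510, 1453 and 1355 CPM, so marker levels moved along with the ligands over these steps.

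**Figure D5:**
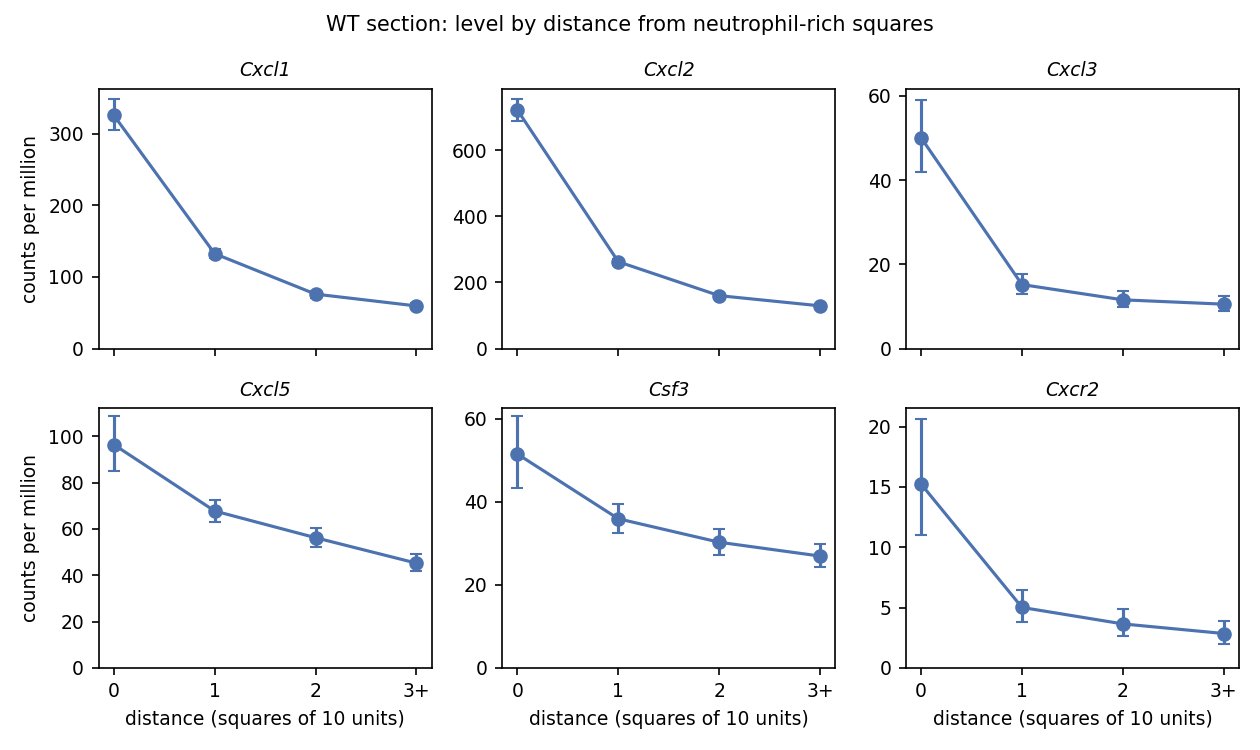
Level of each gene in the WT section by distance from the neutrophil-rich squares, in squares of 10 position units (0 is the rich squares themselves). Points are CPM of all squares at that distance, bars 95% Poisson intervals. Each gene shown is highest at 0 and lowest at 3 or more, from 721 to 129 CPM for Cxcl2 and from 51.5 to 26.9 CPM for Csf3. The share of all genes with such a fall was not tested.

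Cxcl1 and Cxcl2 lay in the same places. In the 2110 squares of the section labelled wild type with a count of Cxcl1, Cxcl2 stood at 301 CPM, against 143 CPM in the 2807 squares without one (log2 1.07, 1.01 to 1.13). In the same squares Cxcl3 was higher by 0.72, Csf3 by 0.55 and Cxcl5 by 0.26, and Cxcr2 had a ratio of 0.00 (−0.44 to 0.43). Over 232 squares of 50 units, the Pearson correlation of log2(CPM + 10) was 0.81 for Cxcl1 with Cxcl2 and 0.51 for Cxcl2 with Cxcl3. Csf3 correlated with Cxcl1, Cxcl2 and Cxcl3 at 0.36, 0.39 and 0.38, and Cxcl5 with the same genes at 0.21, 0.29 and 0.17. These points share 1 library and differ in depth, and genes with fewer counts have noisier values, so the values are descriptions. Cxcl1, Cxcl2 and Cxcl3 are paralogs of similar sequence, and the sources used here do not say how reads that fit more than 1 of them were counted.

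The genes most like each member over these squares, among 8677 genes with 500 or more counts, also differed between the ligands. Genes with few counts have noisier values, with 597 counts for Cxcl3 and 8723 for Cxcl2 in this section. The size of r is therefore not comparable between ligands, and the cause of the different neighbours was not tested. Ptgs2, the inducible prostaglandin synthase, was the most like Cxcl1 (r = 0.75), Cxcl2 (0.84) and Cxcl3 (0.51). Ier3, an immediate early gene, and Ereg, the growth factor epiregulin, came next for Cxcl1 (0.73 and 0.72) and Cxcl2 (0.79 and 0.77). Thbd, the thrombin-binding protein of endothelium, followed at 0.64 and 0.70, S100a8 stood at 0.64 for Cxcl1, and the cytokine Il1b stood at 0.69 for Cxcl2. Cxcl3 was followed by Ap4e1 (0.51), Ier3 (0.48), Dio2 (0.46) and Il6 (0.45). Csf3 was most like Pi15 (0.51), the matrix protease Mmp3 (0.47), Il6 (0.46), Dcn (0.46), a proteoglycan of fibroblasts and 1 of the stromal markers, and Il1b (0.43). Cxcl5 was most like Plau, the urokinase protease (0.56), Igfbp5 (0.56), Bsg (0.54), Tagln2 (0.53) and the amino acid transporter Slc7a5 (0.51). The median correlation over all these genes was between −0.05 and 0.11.

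In the section labelled knockout the same classes of squares rest on few counts. Of its squares, 1 reached the share of neutrophil markers that bounds the neutrophil-rich squares of the section labelled wild type, against 275 for stromal and 3464 for epithelial markers. Its own 828 most neutrophil-rich squares held the list at 182 CPM, against 14.4 CPM in the others, and some of them on 1 count of the list. Of the list's 2548 counts in this section, 1503 were of Mmp9 and 65 of S100a8. The ranking of these squares thus rests largely on Mmp9, and whether they hold neutrophils was not tested. Cxcl5 had 24 counts in these squares and 99 in the others, a log2 ratio of 1.42 (0.71 to 2.08), and 27 and 96 counts with macrophage-rich squares (log2 1.49, 0.81 to 2.12). Its ratio with neutrophil-rich squares was 0.32 with squares of 5 units, 0.72 with the highest 20% and 0.77 within classes of depth. Cxcl2 had 10 and 23 counts with neutrophil-rich squares (log2 2.26, 1.03 to 3.39), but −0.44 with the grid shifted by 5 units. Cxcr2 had 6 of its 12 counts in the 828 stromal-rich squares. Of the counts of the section labelled knockout, 15 of Cxcl2 and 75 of Cxcl5 were at barcode names that the other section also has, and at 2 and 6 of these the other section held the same gene, as it did at 13.0% and 4.30% of all shared names. The 1 count of Csf3 was at a shared name where the other section also held Csf3, as it did at 2.24% of them. The 1 count of Cxcl3 was at a shared name where the other section held 0 counts of it. For Cxcl1 the other section held the gene at 2 of 19, against 6.51% of all shared names. For Cxcr2 it was 0 of 9, against 0.340%.

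Most genes of cytokines that can induce such ligands, and of the receptors of these cytokines, differed in the same direction. Whether they act on the ligands in these sections was not tested. Of 13 measured genes of the list of inducing cytokines and their receptors (20 or more counts over both sections), 10 were 2-fold or more lower in the section labelled knockout and 1 was higher, with a median log2 ratio of −2.35. Of all genes, 19.7% were 2-fold or more lower and 15.7% higher, with a median of −0.18, which also stands beside the counts of the lists that follow. Il1b, the cytokine interleukin-1 beta, had 64 counts (0.713 CPM) in the section labelled knockout and 4883 (123 CPM) in the section labelled wild type, a ratio of −7.43 (−7.81 to −7.07). Il1a stood at −8.21 on 2 and 263 counts, Il6 at −7.32 and Osm, a cytokine of macrophages and neutrophils, at −6.32. Tnf was closer, at −2.60 (−2.85 to −2.36). Receptors varied more: the interleukin-1 receptor Il1r1 stood at −3.71, the oncostatin receptor Osmr at −2.35, the tumour necrosis factor receptor Tnfrsf1a at −0.02 and the interleukin-17 receptor chains Il17ra and Il17rc at −0.31 and 2.27. Il17a, a T cell cytokine known to raise these chemokines, had 0 counts against 2, and Il17f had 3 against 5, too few for a comparison.

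Regulators of NF-kB and of mRNA decay differed less than the ligands. Of 16 genes, 9 were 2-fold or more lower in the section labelled knockout and 0 higher, with a median of −1.20. The subunits Rel, Rela and Nfkb1 stood at −2.34, −0.89 and −0.41, and Relb at 0.87. Cebpb and Cebpd, transcription factors of the acute phase response, stood at −2.33 (99.7 against 503 CPM) and −3.51 (34.7 against 395 CPM). Zfp36, which destabilises cytokine mRNAs, stood at 0.24 (0.20 to 0.27), and Arid5a, which stabilises Il6 mRNA, at −3.89.

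On the receiving side, Csf3r, the receptor of Csf3 and 1 of the neutrophil markers, had 192 counts in the section labelled knockout (2.14 CPM) and 224 in the section labelled wild type (5.62 CPM), a log2 ratio of −1.39 (−1.68 to −1.11). This was far nearer to 0 than the ratio of its ligand or that of Cxcr2, and the intervals did not overlap. Cxcr1, the other receptor of neutrophil chemokines, had 0 and 2 counts. Ackr1, which binds such chemokines on venules without signalling, stood at −2.01, and the scavenger Ackr3 at −2.72. Of 17 measured receptor genes, 9 were 2-fold or more lower and 1 higher, with a median of −1.39.

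Csf3 and Csf2, both colony-stimulating factor genes, lay on opposite sides. Csf2, which encodes the growth factor of granulocytes and macrophages, had 473 counts in the section labelled knockout (5.27 CPM) and 19 in the section labelled wild type (0.477 CPM), a log2 ratio of 3.47 (2.81 to 4.21). Csf1 stood at −1.30 (−1.46 to −1.14), Il34 at −1.04 and Kitl, the ligand of the receptor Kit, at 0.35. Of the 6 measured genes of this list, 1 was 2-fold or more higher and 2 were lower, against 15.7% and 19.7% of all genes. The 12 neutrophil markers that were 2-fold or more lower, of 13 measured, included S100a8 (65 against 8002 counts, −8.12), Retnlg (−6.79), Mmp8 (−6.18) and Camp (−3.58). The exception was Mmp9, with 16.7 CPM against 14.4 CPM. The ratios of the ligands therefore stand beside summed neutrophil markers whose tile ranges did not overlap. These were 9.16 to 75.4 CPM in the section labelled knockout and 263 to 1465 CPM in the section labelled wild type. Mmp9 made up 1503 of the list's 2548 counts in the section labelled knockout and 575 of 25600 in the other. The summed list thus differed less between the sections than S100a8 did.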

How the data were processed

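Spatial transcriptomes of 2 mouse intestine sections were analysed, 1 labelled knockout and 1 labelled wild type, grouped by the genotype in the labels. The authors deposited whole-number counts per gene and barcode, with array positions. Per the labels, tissue was fresh frozen and barcodes under tissue were kept. Per the submitters' processing notes the genome build was GRCm38. The aligner, the counting tool and the treatment of molecular identifiers were not given in the sources used here.

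Counts of repeated symbols were added. The counts were summed by section, part, tile and square, and expressed as CPM (counts per 1000000). CPM carry exact Poisson intervals, shares Clopper-Pearson intervals and log2 ratios exact conditional binomial intervals, all at 95%. The floor of 3 counts is 0.0334 CPM in the section labelled knockout and 0.0753 CPM in the section labelled wild type. Squares of 10 units needed 1000 counts, and tiles of 100 units 200 barcodes. List genes needed 20 counts over both sections, and ranked genes 200.

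With 1 section of each genotype no test was made. The procedures were tested on simulated data with independent Poisson counts. These lack the extra variance that real counts had over squares, so the test does not cover the intervals under that variance. Members, lists and the shared promoter run were chosen with earlier results of these data known. Named genes were the members, Dpf2, per list the 2 most abundant and the 3 with the largest ratio among those with 50 counts, any gene of the inducing and receptor lists, and the 5 most like each member with 500 counts. Genes of the chromosome 5 cluster, genes with the promoter run, Rela, Nfkb1, Relb and the neutrophil markers Retnlg, Mmp8, Camp and Mmp9 were named after their values were seen. Alternatives covered scaling, barcodes, parts, squares, lists and grid. Python 3.11.15, NumPy 2.4.6, pandas 2.3.3 and SciPy 1.17.1 were used.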

Additional observations from a re-analysis of the deposited data

How the results depend on the processing

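With 1 section of each genotype, depth and alternatives limit only the counting and the processing. The section ratios, knockout over wild type by the labels, stayed negative for all 6 genes under all 14 alternatives (scalings, deeper barcodes, repeated symbols, each part left out, and counts under 3 set to 3), between −11.72 and −9.41 for Csf3, −10.62 and −8.30 for Cxcl3, −9.44 and −8.83 for Cxcl2, −8.09 and −7.46 for Cxcl1, −5.65 and −5.04 for Cxcl5, and −5.50 and −4.74 for Cxcr2. The value of −5.04 for Cxcl5, from counts per barcode, lay outside its counting interval, by construction of the scaling. In neutrophil-rich squares of the section labelled wild type, Cxcl1, Cxcl2, Cxcl3 and Cxcr2 stayed 2-fold or more higher under all 12 alternatives, at 1.29 or more, the lowest for Cxcl3 without S100a8, S100a9 and Lcn2 in the list. Cxcl5 lay between 0.41 and 0.83 and Csf3 between 0.56 and 1.06. The number of genes 2-fold or more higher in stromal-rich squares, 1 as reported, was 0 with squares of 20 units, 0 with the highest 20% and 2 with the grid shifted by 5 units; the cause was not tested. Cxcl3 in stromal-rich squares turned to −0.071 when squares rich in several lists were left out, and Cxcl2 in neutrophil-rich squares of the section labelled knockout, on 33 counts, turned to −0.44 with the grid shifted by 5 units; the cause was not tested. Of the ratios between squares for single genes under alternatives, 277 stayed within their counting interval and 51 moved beyond it without turning. For 6 values of the section labelled knockout, with the threshold of the section labelled wild type or the highest 5%, the rich squares held 0 counts and no ratio is given. No paired analysis was possible because each genotype has 1 section.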

Other observations

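Other chemokine genes did not share 1 pattern. Of 16 CC chemokines, 10 were 2-fold or more lower in the section labelled knockout and 3 were higher, with a median log2 ratio of −1.76. Of all genes, 19.7% were lower and 15.7% higher by this measure. Ccl2, which attracts monocytes, had 255 counts in the section labelled knockout (2.84 CPM) and 3912 in the section labelled wild type (98.2 CPM), a ratio of −5.11 (−5.30 to −4.93). Ccl3 stood at −4.92 and Ccl11, which attracts eosinophils, at −4.71. Ccl25, made by the epithelium of the small intestine and a signal for T cells, stood at 4.53 (387 against 16.7 CPM). Of 11 other CXC and CX3C chemokines, 5 were lower and 3 higher. The lower ones include Ppbp, which binds Cxcr2 once processed. The higher ones include Cxcl15, whose interval includes 0. Cxcl13, which attracts B cells, stood at −5.46, Cxcl14 at −3.69, Cxcl10 at −2.77, Cxcl16 at 0.10 and Cx3cl1 at 2.56. Of the counts of Ccl3 in the section labelled wild type, 28.9% lay in neutrophil-rich squares, against 3.42% of those of Cxcl13, where these squares hold 6.95% of all counts.

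Genes that neutrophils use to leave vessels were lower as well. Of 11 measured genes of adhesion and transit, 10 were 2-fold or more lower in the section labelled knockout and 0 higher, with a median of −1.89, where 19.7% of all genes were lower and 15.7% higher, with a median of −0.18. Selp, the P-selectin of venules, stood at −3.38 (−3.77 to −3.00), Itgb2, the beta chain of leukocyte integrins, at −2.86 and Pecam1 at −1.31. Jaml stood at 0.14. Endothelial markers had a median of −1.03 over 11 genes, and whether vessel content bears on these values was not tested.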
